A study of Homo sapiens with 9 samples.

Results

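DKK1 and 9 other genes of the Wnt pathway were examined by RNA-seq in MDA-MB-231, a long-established line of triple-negative breast cancer with mesenchymal features. The other 9 were WNT5B, FZD2, FZD6, LRP5, LRP6, AXIN1, GSK3B, CTNNB1 and TCF7L2. They were chosen by name with earlier results of these data known, so their own values, intervals and calls are given as a description and not as a test, and they make up 10 of the 27615 genes listed. Cells of 1 line were given vehicle (DMSO), rimonabant, an antagonist of the cannabinoid receptor CB1, or TXX-1-10, a compound derived from rimonabant, with 3 libraries per treatment and 9 in all. All 3 groups share the same line and no genetic change is labelled. How long and at what dose the cells were treated is not given in the sources used here. Nothing says whether the 3 libraries of a treatment came from separate cultures, so the tests measure the spread between these libraries, which may be technical.

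Wnt proteins are secreted ligands that bind Frizzled receptors together with the co-receptors LRP5 and LRP6. Without a ligand, AXIN1, APC, casein kinase 1 and GSK3B hold beta-catenin (CTNNB1) in a complex that marks it for destruction, and with a ligand beta-catenin enters the nucleus and acts with TCF/LEF factors such as TCF7L2. DKK1 is a secreted protein that binds LRP5 and LRP6 and blocks this branch, and it is itself known as a target of beta-catenin. WNT5A, WNT5B and ROR1 are better known for branches that do not need beta-catenin.

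The start-site regions of DKK1, LRP5 and AXIN1 are shown because, under TXX-1-10, DKK1 and LRP5 were the most lowered of the 10 and AXIN1 was the most raised. Each window holds 250 bases before and 50 bases after a start site, 5' to 3' on the gene's strand, from RefSeq on GRCh38.p14. The windows lie at chr10:52314031-52314330 (+ strand), chr11:68312341-68312640 (+ strand) and chr16:352674-352973 (- strand). Capitals mark any of 4 words that TCF/LEF factors are known to bind, searched on both strands. These words were AACAAAG with its variants ATCAAAG, also TACAAAG, and lastly TTCAAAG.
DKK1: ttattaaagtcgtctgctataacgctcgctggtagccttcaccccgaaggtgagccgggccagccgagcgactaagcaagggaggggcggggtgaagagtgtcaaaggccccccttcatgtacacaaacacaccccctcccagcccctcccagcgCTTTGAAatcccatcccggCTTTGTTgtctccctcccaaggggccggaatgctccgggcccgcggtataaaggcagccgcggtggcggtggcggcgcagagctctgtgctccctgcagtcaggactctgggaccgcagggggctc
LRP5: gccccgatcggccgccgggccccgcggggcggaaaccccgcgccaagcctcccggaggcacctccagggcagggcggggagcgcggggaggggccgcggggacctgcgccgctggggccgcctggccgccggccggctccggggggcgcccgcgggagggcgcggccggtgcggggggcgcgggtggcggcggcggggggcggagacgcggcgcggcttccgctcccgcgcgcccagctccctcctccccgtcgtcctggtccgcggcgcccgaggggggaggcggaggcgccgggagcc
AXIN1: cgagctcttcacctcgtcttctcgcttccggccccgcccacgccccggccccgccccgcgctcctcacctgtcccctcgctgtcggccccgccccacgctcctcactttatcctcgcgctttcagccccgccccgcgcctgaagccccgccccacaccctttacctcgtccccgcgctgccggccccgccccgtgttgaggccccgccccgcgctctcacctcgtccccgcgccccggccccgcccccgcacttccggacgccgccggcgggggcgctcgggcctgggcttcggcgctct
The DKK1 window holds 2 of these words, both on the opposite strand, beginning 95 and 76 bases before the start site, and a TATAAA word 30 bases before it. Of 35116 promoter windows of the same length, 13.75% hold at least 1 of the 4 words, 1.58% hold at least 2 and 11.5% hold TATAAA on either strand. Neither the LRP5 window (86.7% G and C) nor the AXIN1 window (78.0%) holds any of them, and the DKK1 window has 63.7% G and C. Windows were found for 7 of the 10 genes, 10 windows in all, and TCF7L2 was the other gene with such a word. A match of letters is a description and does not show binding.

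A library total was worked out from count, FPKM and length. It was 17078370 to 17245379 for vehicle, 17477838 to 18813662 for rimonabant and 18394759 to 19277808 for TXX-1-10. These totals scale the libraries and are not numbers of sequenced reads. In vehicle replicate 1 the listed counts, 17492638, exceed the total of 17078370. Each list of genes breaks off at its own point of a shared order from high to low counts, and a gene missing from a list is not at 0. WNT5B, FZD2, AXIN1 and TCF7L2 are not listed for rimonabant replicate 1 and rest on 2 rimonabant libraries. The 5 markers of mesenchymal, basal-type breast cancer cells were listed at 20.8 to 329 FPKM (fragments scaled to exon length and to the library total) in all 9 libraries and, in the 4 longest lists, summed to 721 FPKM under vehicle, 562 under rimonabant and 484 and 538 under TXX-1-10. The part of this difference in the results was not tested. CDH1, which encodes E-cadherin, was at 0 in the same 4 libraries. The 7 luminal or epithelial markers reached at most 5.37 FPKM and summed to 6.73 to 7.82 FPKM in the 4 longest lists. Fibroblast markers were at most 0.798 FPKM, leukocyte markers at most 0.248 and endothelial markers at most 0.172.

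Rimonabant replicate 1 and TXX-1-10 replicate 3 stood apart from the other replicates of their treatments. In both, the deviation from the group mean fell with exonic length over 4237 genes (Spearman rho = -0.69 in each), whereas rho was 0.477 to 0.667 in the other libraries of these treatments and -0.025 to 0.028 in the vehicle libraries. LRP6, with 10337 exonic bases, and GSK3B, with 8156, were lowest in these libraries within their treatments, and DKK1, with 2206, was highest. CTNNB1, with 11927 exonic bases, deviated by no more than 0.053 on the log2 scale in either. Values that rest on these libraries are also given without them, and their part in the results was not otherwise tested.

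DKK1 (ENSG00000107984, chr10:52314296-52318042, GRCh38), the secreted inhibitor, was lower under both compounds and lowest under TXX-1-10. Its level was 186, 180 and 175 FPKM in the vehicle libraries, 76.8, 66.8 and 72.7 in the rimonabant libraries, and 20.9, 21.5 and 28.2 in the TXX-1-10 libraries. The 3 ranges were far apart, and every TXX-1-10 library was below every rimonabant library. Group means were 180 ± 5.42 FPKM (SD, n = 3), 72.1 ± 5.04 and 23.5 ± 4.05. The counts behind them were 6645 to 6998, 2773 to 2971 and 873 to 1144 reads, so that counting error was small against the differences.

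Against vehicle, DKK1 was 7.67-fold lower under TXX-1-10 (log2 fold change -2.94, SE 0.11, 95% interval -3.18 to -2.70) and at 40.0% of the vehicle level under rimonabant (-1.32, SE 0.10, 95% interval -1.55 to -1.10). Between the compounds the difference was 3.07-fold (-1.62, SE 0.11). Without both libraries that stood apart, the log2 fold changes were -3.09, -1.37 and -1.72. By FPKM, DKK1 ranked 147 to 153 among 4237 genes in the vehicle libraries, 472 to 499 in the rimonabant libraries and 1472 to 1965 in the TXX-1-10 libraries. It went from among the most abundant mRNAs of these cells, per length, toward the middle of this set. The set holds only genes listed for all 9 libraries, the high-count part of the 27615 listed, so its middle is not that of all genes. DKK1 shares 212 exonic bases (9.61% of its length) with PRKG1-AS1 on the opposite strand, which had a mean of 49.2 reads, and whether counting used strand is not given in the sources used here.

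WNT5B (ENSG00000111186, chr12:1529891-1647243), the ligand of the set, differed little. Its level was 7.17, 6.84 and 7.36 FPKM under vehicle, 6.33 and 6.29 in the 2 rimonabant libraries that list it, and 6.13, 6.20 and 7.80 under TXX-1-10. Both rimonabant libraries lay just below the vehicle range, and TXX-1-10 replicate 3 lay above it while the other two lay below. The log2 fold change was -0.09 (SE 0.09, 95% interval -0.29 to 0.11) for TXX-1-10 and -0.17 (SE 0.10, 95% interval -0.40 to 0.05) for rimonabant. Without TXX-1-10 replicate 3 the value for TXX-1-10 was -0.21.

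The receptors FZD2 and FZD6 were both lower under TXX-1-10, to different extents. FZD2 (ENSG00000180340, chr17:44557459-44559570) was at 21.5, 21.4 and 23.4 FPKM under vehicle, 14.8 and 14.0 under rimonabant, and 11.1, 10.3 and 12.0 with TXX-1-10. Its 3 ranges did not overlap, and the log2 fold changes against vehicle were -0.99 (SE 0.07) for TXX-1-10 and -0.62 (SE 0.08) for rimonabant. FZD6 (ENSG00000164930, chr8:103298433-103332866) was at 19.2, 17.6 and 17.6 FPKM under vehicle, 17.5, 17.3 and 18.1 under rimonabant, and 14.7, 14.1 and 13.6 with TXX-1-10. Vehicle and rimonabant overlapped for FZD6, and every TXX-1-10 library was below both. Its log2 fold changes were -0.36 (SE 0.06) and -0.04 (SE 0.05, 95% interval -0.16 to 0.08), and the first was -0.26 with TMM scaling in place of the authors' library totals.

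LRP5 (ENSG00000162337, chr11:68312609-68449275), a co-receptor that DKK1 binds, was lower under both compounds. It was listed at 25.8, 26.2 and 27.5 FPKM under vehicle, 14.2, 15.0 and 14.8 under rimonabant, and 10.4, 11.1 and 8.58 with TXX-1-10. The groups did not overlap, and after DKK1 this was the largest difference in the set. The log2 fold change was -1.40 (SE 0.08) for TXX-1-10, a 2.65-fold lower level, and -0.85 (SE 0.08) for rimonabant. With both libraries that stood apart left out, these were -1.30 and -0.83.

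LRP6 (ENSG00000070018, chr12:12116025-12267012), the paralogous co-receptor, was lower by less and with a wider spread. Its level was 10.7, 10.6 and 9.93 FPKM under vehicle, 6.17, 8.75 and 7.45 under rimonabant, and 7.03, 7.07 and 4.94 with TXX-1-10. Vehicle lay above both compounds in every library, whereas rimonabant and TXX-1-10 overlapped, and the lowest value of each compound came from its library that stood apart. The log2 fold changes were -0.71 (SE 0.15) for TXX-1-10 and -0.48 (SE 0.15) for rimonabant, and -0.56 and -0.36 without both of these libraries. Between the compounds the value was -0.23 (SE 0.15, 95% interval -0.57 to 0.10), and it was -0.08 without TXX-1-10 replicate 3 and -0.35 without rimonabant replicate 1. The ratio of LRP5 to LRP6 in FPKM was 2.41 to 2.77 under vehicle, 1.72 to 2.31 under rimonabant and 1.49 to 1.74 under TXX-1-10.

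AXIN1 (ENSG00000103126, chr16:287440-352673), the scaffold of the destruction complex, was higher under TXX-1-10 and not under rimonabant beyond the spread of the libraries. It was at 5.02, 5.41 and 5.73 FPKM under vehicle, 5.71 and 5.54 under rimonabant, and 10.0, 9.28 and 9.59 with TXX-1-10. Vehicle and rimonabant overlapped, and every TXX-1-10 library was well above both. The log2 fold change against vehicle was 0.84 (SE 0.06) for TXX-1-10, a 1.79-fold higher level, and 0.06 (SE 0.07, 95% interval -0.09 to 0.22) for rimonabant. Between the compounds it was 0.77 (SE 0.07).

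GSK3B (ENSG00000082701, chr3:119821323-120094417), the kinase of that complex, was higher under both compounds. Its level was 14.2, 13.8 and 13.4 FPKM under vehicle, 15.1, 18.3 and 17.1 under rimonabant, and 19.1, 18.6 and 15.9 with TXX-1-10. All 6 treated libraries were above the vehicle range, the compounds overlapped, and the lowest treated values were those of the libraries that stood apart. The log2 fold changes were 0.38 (SE 0.08) for TXX-1-10 and 0.29 (SE 0.08) for rimonabant, and 0.45 and 0.36 without both of them. Between the compounds the value was 0.09 (SE 0.08, 95% interval -0.10 to 0.27).

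CTNNB1 (ENSG00000168036, chr3:41194741-41260096), which encodes beta-catenin, showed a small and graded difference. It was at 34.8, 32.9 and 32.0 FPKM under vehicle, 29.9, 29.1 and 28.7 under rimonabant, and 24.2, 24.0 and 25.4 with TXX-1-10. No ranges overlapped, and the log2 fold changes against vehicle were -0.44 (SE 0.05) and -0.19 (SE 0.05), or -0.34 and -0.17 with TMM scaling. These are mRNA levels, and the beta-catenin protein was not measured in these libraries. TCF7L2 (ENSG00000148737, chr10:112950250-113167678), the nuclear partner, was at 3.60, 3.43 and 3.17 FPKM under vehicle, 2.75 and 2.81 under rimonabant, and 2.82, 2.62 and 2.94 with TXX-1-10. The compounds overlapped and lay below vehicle, with log2 fold changes of -0.28 (SE 0.08) for TXX-1-10 and -0.29 (SE 0.09) for rimonabant.

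**Figure D1:**
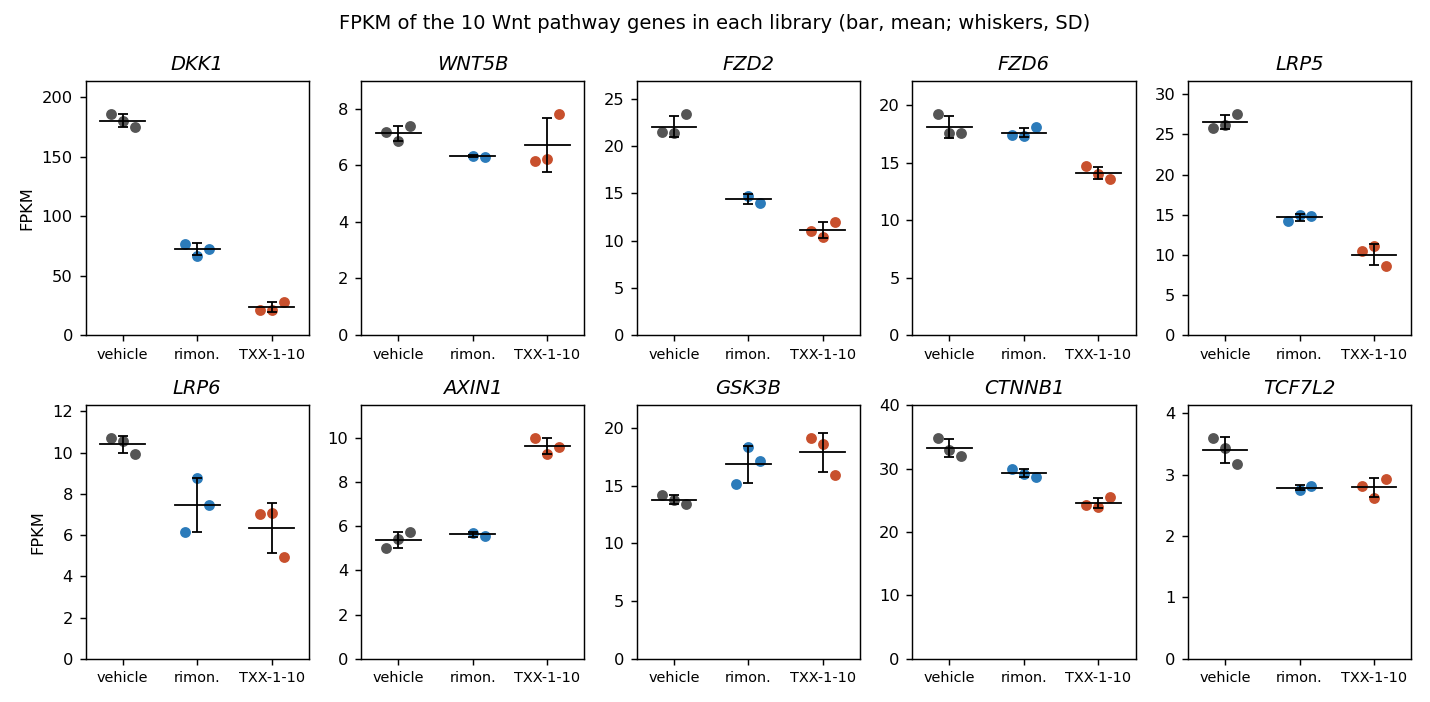
Level in FPKM (y axis, from 0) of the 10 Wnt pathway genes under vehicle, rimonabant (rimon.) and TXX-1-10 (x axis), with 1 point per library in the order of replicates 1 to 3, a bar at the mean and whiskers of 1 SD. DKK1 stands at 175 to 186 FPKM under vehicle and 20.9 to 28.2 under TXX-1-10, and AXIN1 and GSK3B are the genes whose TXX-1-10 libraries all lie above vehicle.

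The order of the 10 genes by level, per length, differed between treatments. In vehicle-treated cells DKK1 led CTNNB1 by 5.33 to 5.48-fold in FPKM, and this ratio was 2.30 to 2.57 under rimonabant and 0.861 to 1.11 under TXX-1-10. Under TXX-1-10 the ranges of DKK1 and CTNNB1 overlapped, LRP5 overlapped both FZD2 and AXIN1 (means of 10.0 ± 1.29, 11.1 ± 0.836 and 9.62 ± 0.360 FPKM, SD, n = 3), and WNT5B overlapped LRP6. In the vehicle libraries none of these pairs overlapped. Under rimonabant FZD6 overlapped GSK3B, LRP5 overlapped FZD2, and LRP6 overlapped WNT5B. TCF7L2 had the lowest level of the 10 under all 3 treatments.

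Called here means a log2 fold change of 1 or more in size together with an adjusted p below 0.05 in edgeR's quasi-likelihood test. For the 10 genes this label is a description, since these contrasts chose them. It fell on 2 of them, both lower, for TXX-1-10 against vehicle (DKK1 and LRP5) and on DKK1 alone in the other comparisons, beside 14.4% of all 11688 genes tested for TXX-1-10, 2.33% for rimonabant and 7.28% for TXX-1-10 against rimonabant. By direction, 6.72% of all genes were called higher and 7.66% lower for TXX-1-10, 1.24% and 1.09% for rimonabant, and 2.86% and 4.42% between the compounds. FZD2, at -0.99, lay just short of the fold, and it was -1.04 without TXX-1-10 replicate 3. Ranges of TXX-1-10 and vehicle did not overlap for 9 of the 10 genes (2 higher, 7 lower), and this held for 75.6% of all genes tested (36.4% higher, 39.2% lower). For rimonabant against vehicle it held for 8 of the 10 (1 higher, 7 lower), beside 65.1% of all genes (34.4% and 30.7%), and for TXX-1-10 against rimonabant for 6 (1 higher, 5 lower), beside 66.0% (31.0% and 35.0%). Because the genes were chosen with these contrasts known, nothing is read from the counts. The median log2 fold change of the 10 was -0.40, -0.24 and -0.24 in the 3 comparisons, beside -0.02, 0.01 and -0.02 over all genes tested.

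**Figure D2:**
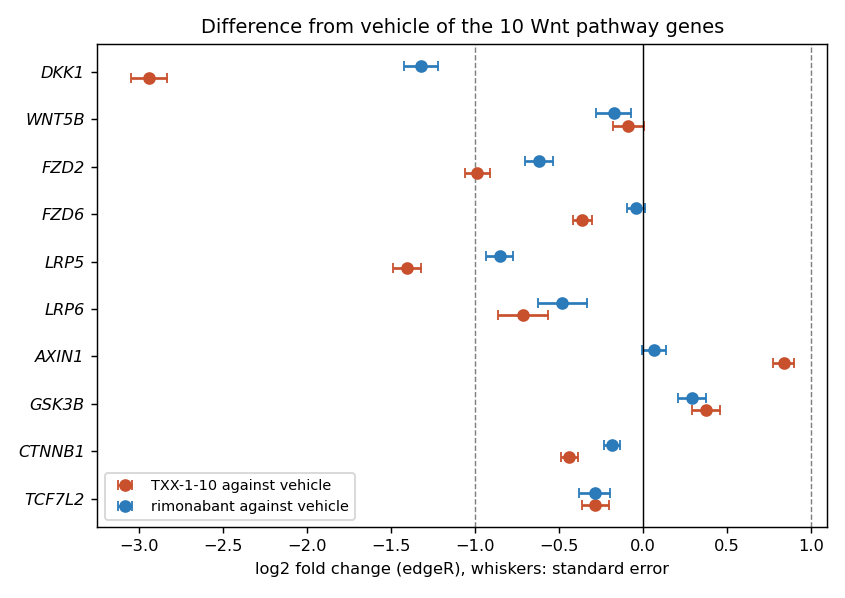
Log2 fold change against vehicle (x axis, edgeR) of the 10 Wnt pathway genes (y axis) under TXX-1-10 (red) and rimonabant (blue), with whiskers of 1 standard error and dashed lines at 1 and -1. DKK1 lies at -2.94 and -1.32, and AXIN1 at 0.84 and 0.06. Both comparisons use the same vehicle libraries.

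To place these genes in their pathway, 171 further Wnt genes were grouped by role, of which 157 are listed in at least 1 library. A test needed a listing for at least 2 libraries of each treatment and a mean of at least 1 FPKM (the filter on low values). In all, 109 genes met both. Of the 48 listed genes that were not tested, 44 never reached 1 FPKM. ID2 and KREMEN2 did reach it in at least 1 library, although their mean was below it. WNT8B and SFRP5 did so too, but each is listed for only 1 rimonabant library. Against vehicle, 42 of the 109 rose and 39 fell under TXX-1-10 at an adjusted p under 0.05, and 25 rose and 28 fell under rimonabant (edgeR, adjusted over all genes tested in the same fit). Across all genes, 70.6% passed the test for TXX-1-10 (33.9% rose and 36.7% fell) and 41.9% passed for rimonabant (22.1% rose and 19.8% fell). With the fold threshold, 11 of the 109 were called under TXX-1-10 (10.1%, beside the 14.4% of all genes). Under rimonabant 1 was called (0.917%, beside 2.33%), and between the compounds 7 were (6.42%, beside 7.28%). With no filter on low values 119 list genes could be tested, and 14, 3 and 9 were called. Of all 12902 genes then tested, 938 were called higher and 1102 lower for TXX-1-10. These numbers were 183 and 202 for rimonabant, and 419 and 618 between the compounds. The median log2 fold changes of the 109 were -0.01, -0.04 and 0.02.

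Among the 5 tested ligands, WNT9A rose and WNT10B fell under both compounds, and WNT9A alone was called in all 3 comparisons. Of the untested ligands, WNT2B was at 0.1445 to 0.2173 FPKM under vehicle and 0.588 to 0.857 under TXX-1-10. WNT8B was at 0.222 to 0.247 FPKM (8 and 9 reads) and 1.21 to 1.34. Both were named after their values were seen, and the other untested ligands reached at most 0.385 FPKM. WNT9A was at 0.265 and 0.395 FPKM (18 and 27 reads) in vehicle replicates 1 and 3, 1.18 and 1.29 in rimonabant replicates 2 and 3, and 3.75, 3.15 and 3.42 under TXX-1-10. None of these ranges overlapped, and the gene is not listed for vehicle replicate 2 or rimonabant replicate 1. WNT9A lay below 1 FPKM in both vehicle libraries and met the filter on low values only through the treated libraries. Its calls and p-values are therefore a description and lend no weight to a rise. The log2 fold changes against vehicle were 3.37 (SE 0.19, edgeR adjusted p = 4.24e-08) and 1.90 (SE 0.23, edgeR adjusted p = 0.000139), and TXX-1-10 exceeded rimonabant by 1.48 (edgeR adjusted p = 8.98e-06). With limma on log2(FPKM + 1), which compresses low values, WNT9A was at 0.75 for rimonabant and 0.99 between the compounds and was called in neither.

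WNT10B was at 2.74 and 3.51 FPKM under vehicle, 1.52 and 1.68 under rimonabant, and 0.789, 0.558 and 0.992 with TXX-1-10. It met the filter on low values through the vehicle and rimonabant libraries. The log2 fold changes of WNT10B were -1.999 for TXX-1-10 (SE 0.21, edgeR adjusted p = 5.82e-06) and -0.97 for rimonabant (SE 0.21, edgeR adjusted p = 0.00489). Between the compounds it was called at -1.03 (edgeR adjusted p = 0.00256), a call lost with limma on log2(FPKM + 1) (-0.55) or + 0.1 (-0.98), with TMM scaling (-0.9998) and when rimonabant replicate 3 (-0.96) or TXX-1-10 replicate 2 (-0.85) was left out. WNT5A, the paralog of WNT5B, fell under TXX-1-10, from 4.75, 4.90 and 4.91 FPKM to 2.38, 3.18 and 2.58 (log2 fold change -0.84, SE 0.10, edgeR adjusted p = 9.41e-06). Under rimonabant WNT5A was at 4.48 and 3.85 FPKM, and the difference from vehicle did not pass the test (-0.22, SE 0.11, edgeR adjusted p = 0.118). WNT7B, named after its values were seen, went the other way round, with a fall under rimonabant (-0.89, SE 0.16, edgeR adjusted p = 0.000782) and 1.81 to 2.18 FPKM under vehicle beside 1.58 to 2.12 under TXX-1-10. TXX-1-10 exceeded rimonabant for WNT7B (0.85, SE 0.16, edgeR adjusted p = 0.000587).

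The Frizzled receptors moved unequally. FZD8 rose from 3.81, 3.67 and 4.25 FPKM under vehicle to 7.62 and 7.82 in the rimonabant libraries that list it and to 23.3, 24.7 and 26.0 under TXX-1-10. These ranges were far apart, with log2 fold changes of 2.66 (SE 0.07, edgeR adjusted p = 2.25e-11) and 0.98 (SE 0.08, edgeR adjusted p = 4.38e-06), and 1.67 between the compounds (SE 0.08, edgeR adjusted p = 4.83e-09). FZD1 fell under TXX-1-10 (-0.95, SE 0.08, edgeR adjusted p = 5.08e-07), from 5.32, 6.07 and 5.11 FPKM to 2.65, 3.07 and 2.81, and was at 5.23 and 5.29 under rimonabant. FZD3 rose under both compounds from a low level (0.57 for TXX-1-10 and 0.47 for rimonabant on the log2 scale, edgeR adjusted p = 5.32e-05 and 0.0016). FZD4 fell under rimonabant (-0.36, SE 0.10, edgeR adjusted p = 0.015), and FZD5 and FZD7 passed the test under neither compound. FZD9 and FZD10 were at 0 wherever listed.

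Because FZD8 rose while FZD2 and FZD6 were lower, the make-up of Frizzled mRNA differed. In the 8 libraries that list FZD1 to FZD8, their FPKM summed to 64.2 to 64.6 under vehicle, 59.1 to 60.0 under rimonabant and 67.0 to 70.1 under TXX-1-10. FZD2 held 33.3% to 36.2% of this sum under vehicle, 23.3% to 24.96% under rimonabant and 15.1% to 17.1% under TXX-1-10. FZD8 held 5.72% to 6.58%, 12.9% to 13.03% and 34.8% to 37.1%. FZD2 ranked 1 of the 8 in every vehicle library, FZD6 ranked 1 in both rimonabant libraries, and FZD8 ranked 1 in every TXX-1-10 library. This is a description that includes the chosen genes FZD2 and FZD6, and it compares genes per length.

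Among the other receptors, ROR1, a receptor of WNT5A, fell under both compounds. It was at 5.12, 4.86 and 5.03 FPKM under vehicle, 2.91 and 2.62 under rimonabant, and 0.896, 0.996 and 0.809 with TXX-1-10. None of the ranges overlapped, with log2 fold changes of -2.47 (SE 0.09, edgeR adjusted p = 2.63e-10) and -0.85 (SE 0.09, edgeR adjusted p = 2.27e-05). The difference between the compounds was -1.62 (SE 0.11, edgeR adjusted p = 8.93e-08). It was -0.99 with limma on log2(FPKM + 1), where the call was lost. ROR1 lay below 1 FPKM in every TXX-1-10 library and met the filter on low values through the other groups. Its relative ROR2 was at 0 in the 4 libraries that list it. LGR4, a receptor for R-spondins named after its values were seen, fell by 0.98 under TXX-1-10 (SE 0.08, edgeR adjusted p = 1.79e-07) and was at 7.97 and 7.25 FPKM under rimonabant beside 7.49 to 8.73 under vehicle.

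Few other secreted or membrane inhibitors were expressed at a level that could be tested. DKK3 reached at most 0.417 FPKM in the 5 libraries that list it, and SFRP4, SOST, RNF43 and NOTUM at most 0.071, and DKK1 was the one inhibitor of its family above 1 FPKM among those listed. SFRP5 reached 1.007 FPKM in 1 library, and DKK2 and DKK4 were not analysed here. KREMEN2, a receptor of DKK1 that did not pass the filter, was at 1.39 and 1.67 FPKM (62 and 75 reads) in the 2 vehicle libraries that list it, 0.915 and 0.723 under rimonabant and 0.520 and 0.728 with TXX-1-10. With no filter its log2 fold change was -1.29 for TXX-1-10 and -0.90 for rimonabant (edgeR adjusted p = 0.00112 and 0.0201). TPBG, which encodes a membrane inhibitor of Wnt signalling, rose from 9.35, 10.5 and 9.72 FPKM to 14.4, 14.6 and 14.9 under rimonabant and to 24.4, 23.9 and 26.4 under TXX-1-10. Its 3 ranges did not overlap, and the order was the reverse of that of DKK1 (log2 fold changes 1.34 and 0.57, SE 0.06 each, edgeR adjusted p = 1.55e-08 and 4.18e-05). KREMEN1, the paralog of KREMEN2, and ZNRF3, which removes Frizzled from the membrane, fell under TXX-1-10 (-0.68 and -0.75, SE 0.12 each, edgeR adjusted p = 0.000217 and 9.33e-05). These 2 genes and KREMEN2 were named after their values were seen, and KREMEN1 and ZNRF3 did not pass the test for rimonabant.

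Of the 21 tested genes of the Dishevelled and destruction-complex group, 17 rose under TXX-1-10 and 2 fell, beside 33.9% and 36.7% of all genes tested. AXIN1 and GSK3B are not counted among them. The list and its groups were also drawn up with earlier results of these data known, so this count is a description. The median log2 fold change was 0.34, and most of the changes were small. Under rimonabant 8 rose and 1 fell, beside 22.1% and 19.8% of all genes, with 12 that did not pass the test. Without both libraries that stood apart, 19 rose and 2 fell under TXX-1-10, and with only the 13 members listed for all 9 libraries, 10 rose. GSK3A, the paralog of GSK3B, rose under both compounds (0.26 and 0.34, SE 0.08 each, edgeR adjusted p = 0.0169 and 0.00791). FRAT2, which binds GSK3 and draws it from Axin, was the member that was called, with 3.47 and 3.78 FPKM under vehicle, 4.42 and 4.56 under rimonabant and 6.75, 6.93 and 8.42 with TXX-1-10 (log2 fold change 1.02, SE 0.13, edgeR adjusted p = 3.48e-05). This call was lost in 5 alternatives, among them without TXX-1-10 replicate 3 (0.92), without vehicle replicate 1 (0.96) and with limma on log2(FPKM + 1) (0.85).

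Others of this group, named after their values were seen, were the Dishevelled gene DVL2, which carries the signal from Frizzled, BTRC, the ubiquitin ligase subunit that takes up marked beta-catenin, and TNKS, which promotes the turnover of Axin. They rose by 0.54, 0.57 and 0.60 on the log2 scale under TXX-1-10 (edgeR adjusted p = 5.53e-06, 1.56e-05 and 6.65e-06) and by 0.32, 0.52 and 0.45 under rimonabant (edgeR adjusted p = 0.000719, 0.000327 and 0.00063). The members included genes that hold the complex together as well as genes that act against it. AMER1 and FBXW11 were the 2 that fell under TXX-1-10 (-0.55 and -0.17, edgeR adjusted p = 0.0138 and 0.00622). AXIN2, the paralog of AXIN1 and a standard readout of beta-catenin activity, was too low to be tested. It had 55 and 66 reads under vehicle, 69 and 54 under rimonabant and 75, 60 and 74 with TXX-1-10, at 0.558 to 0.769 FPKM, and these ranges overlapped. With no filter on low values its log2 fold change under TXX-1-10 was 0.08 (edgeR adjusted p = 0.721).

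Of 22 tested nuclear factors and co-factors of beta-catenin, 3 rose and 8 fell under TXX-1-10 (13.6% and 36.4%, beside 33.9% and 36.7% of all genes) and 2 rose and 7 fell under rimonabant (9.09% and 31.8%, beside 22.1% and 19.8%). RUVBL2, an ATPase that binds beta-catenin, was called lower under TXX-1-10, from 62.6, 65.4 and 71.6 FPKM to 31.1, 31.5 and 35.5 (log2 fold change -1.03, SE 0.08, edgeR adjusted p = 1.68e-06), with 53.5, 43.8 and 47.1 under rimonabant. The fold was near the threshold and lay at -0.93 with TMM scaling. Without vehicle replicate 3, TXX-1-10 replicate 1 or TXX-1-10 replicate 2 it was -0.97, -0.99 and -0.9998, short of the fold in each case. LEF1, which binds the same DNA words as TCF7L2, rose under rimonabant (0.49, SE 0.11, edgeR adjusted p = 0.00339) and was at 2.47 to 2.87 FPKM under TXX-1-10 beside 2.04 to 2.54 under vehicle. TCF7 reached at most 0.789 FPKM and TCF7L1 at most 0.579, and neither was tested.

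Genes reported as targets of beta-catenin moved in both directions. Of 16 tested, 7 rose and 6 fell under TXX-1-10 (43.8% and 37.5%, beside 33.9% and 36.7% of all genes), and 7 rose and 6 fell under rimonabant (the same shares, beside 22.1% and 19.8% of all genes). VEGFA, an angiogenic growth factor, rose under TXX-1-10 from 5.86, 5.73 and 5.77 FPKM to 16.1, 16.5 and 16.4, with 6.90, 7.25 and 7.58 under rimonabant (log2 fold changes 1.496 and 0.32, SE 0.05 each, edgeR adjusted p = 1.61e-09 and 0.000356). BIRC5, which encodes survivin, fell from 30.8, 30.5 and 29.8 FPKM to 10.1, 9.60 and 11.9, with 26.1, 21.5 and 23.5 under rimonabant (-1.53 and -0.36, SE 0.09 each, edgeR adjusted p = 1.3e-07 and 0.0064). CCND1, which encodes cyclin D1, fell from 115, 114 and 115 FPKM to 55.5, 56.3 and 53.3, with 84.4, 87.8 and 86.6 under rimonabant (-1.06 and -0.41, SE 0.04 each, edgeR adjusted p = 1.09e-08 and 4.91e-05). The CCND1 fold was -0.96 with TMM scaling, and this gene shares 497 exonic bases with LTO1 on the opposite strand, which had a mean of 770 reads.

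MYC, named after its values were seen, differed between the compounds in direction. It rose under TXX-1-10, from 74.5, 72.1 and 75.8 FPKM to 94.5, 94.7 and 103 (0.39, SE 0.06, edgeR adjusted p = 0.000115), and fell under rimonabant, to 68.4, 60.5 and 64.7 (-0.20, SE 0.06, edgeR adjusted p = 0.0147). The difference between the compounds passed the test (0.59, SE 0.06, edgeR adjusted p = 9.34e-06). ID2, a target named after its values were seen, did not pass the filter, with 0.265 and 0.237 FPKM (10 and 9 reads) under vehicle, 0.410 and 0.930 under rimonabant and 1.18, 1.11 and 1.16 with TXX-1-10. With no filter its log2 fold change was 2.18 for TXX-1-10 and 1.40 for rimonabant (edgeR adjusted p = 0.000182 and 0.022). Of the other targets often used as readouts, LGR5 reached at most 0.299 FPKM and NKD1 had at most 1 read where listed.

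In the planar polarity and calcium group, 11 of 29 rose and 13 fell under TXX-1-10 (37.9% and 44.8%, beside 33.9% and 36.7% of all genes), and 5 rose and 8 fell under rimonabant (17.2% and 27.6%, beside 22.1% and 19.8%). PRKCA, which encodes protein kinase C alpha, was called lower under TXX-1-10, from 19.8, 19.6 and 20.5 FPKM to 9.73, 10.6 and 7.99 (log2 fold change -1.08, SE 0.11, edgeR adjusted p = 8.89e-06), with 11.2, 14.5 and 12.8 under rimonabant. Its lowest value under each compound came from the library that stood apart, and its fold was -0.97 without TXX-1-10 replicate 3. NFATC4, a transcription factor of the calcium branch, was at 1.60, 1.55 and 1.65 FPKM under vehicle, 0.970 and 1.23 under rimonabant, and 2.23, 2.19 and 2.28 with TXX-1-10. It rose under TXX-1-10 (0.48, SE 0.09, edgeR adjusted p = 0.000437) and fell under rimonabant (-0.54, SE 0.11, edgeR adjusted p = 0.002), with 1.02 between the compounds (edgeR adjusted p = 6.2e-06), or 0.86 without rimonabant replicate 2 and 0.63 with limma on log2(FPKM + 1), where the call was lost. Of the 3 tested junction partners of beta-catenin, 2 fell under each compound and none rose, and CTNNA1, which encodes alpha-catenin, fell under rimonabant (-0.29, SE 0.04, edgeR adjusted p = 0.000519).

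**Figure D3:**
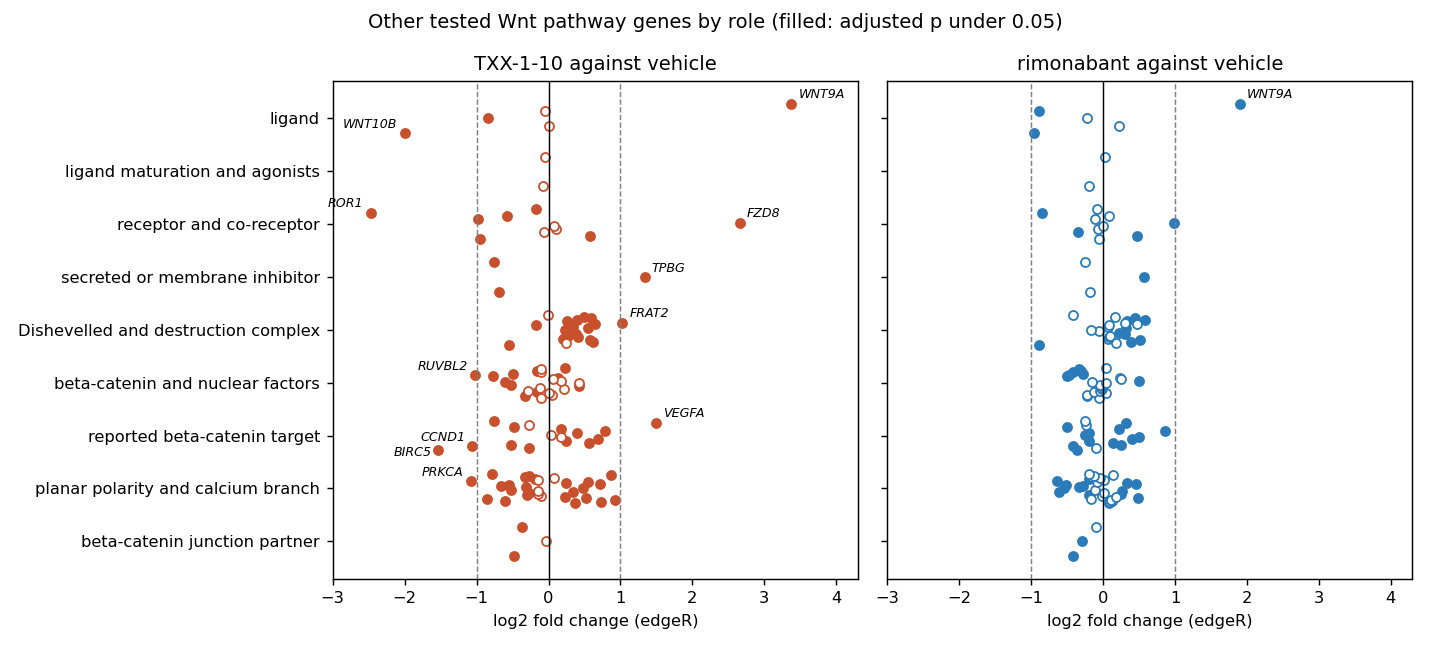
Log2 fold change against vehicle (x axis, edgeR) of the 109 other tested Wnt genes by role (y axis) under TXX-1-10 (left) and rimonabant (right), with filled points for adjusted p under 0.05, dashed lines at 1 and -1 and names of called genes. A gene with 2 roles is drawn in both. Of the 21 Dishevelled and destruction-complex genes, 17 lie above 0 and pass the test under TXX-1-10.

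Neither of the 2 tested genes of ligand maturation passed the test under either compound. RSPO3, an agonist, reached at most 0.103 FPKM. In the direct comparison of the compounds, 33 of the 109 genes were higher under TXX-1-10 than under rimonabant and 30 were lower, beside 26.0% and 31.0% of all genes, 57.0% in all. FZD8, WNT9A, VEGFA and NFATC4 were called higher, and ROR1, BIRC5 and WNT10B were called lower. Under rimonabant, further genes crossed the fold when 1 library was left out. These were FZD8 (1.05 without vehicle replicate 3) and WNT10B (-1.13 without vehicle replicate 1), and AMER1 and WNT7B once each.

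The genes whose level over the 9 libraries was most like that of DKK1 were named by Pearson correlation of log2(FPKM + 1) among 4235 genes. The points share 3 treatments, so the correlation mostly follows the order of the treatment means. The 5 most alike were CCNB1, which encodes the mitotic cyclin B1, NCL (nucleolin), SERBP1, SNX5 and PPME1, with r of 0.998 to 0.999. CCNB1 was at 127 ± 0.767 FPKM under vehicle, 66.3 ± 5.08 under rimonabant and 31.8 ± 3.17 with TXX-1-10 (SD, n = 3). The correlation does not weigh the size of a difference, and the other 4 differed by less. From vehicle to TXX-1-10, mean FPKM went from 130.8 to 71.9 for NCL and from 83.45 to 42.6 for SERBP1. It went from 20.3 to 10.3 for SNX5 and from 15.6 to 9.76 for PPME1. Among the most opposite were NBR1 and ULK1, which act in autophagy, JOSD1 and TPP1, a lysosomal peptidase, with r of -0.995 to -0.997. ULK1 was at 4.90 ± 0.179, 8.56 ± 0.150 and 19.0 ± 0.933 FPKM (SD, n = 3). DKK1 shared its pattern with other genes, since 69 of the 4235 had r above 0.99 and 22 had r below -0.99.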

How the data were processed

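Polyadenylated RNA of 9 libraries was sequenced. Per the labels and the study's methods, reads were aligned and counted on genes, and the submitters' processing notes name HISAT2 2.0.5 and featureCounts 1.5.0-p3. The authors deposited, per gene and library, a raw count and an FPKM value, which is that count divided by gene length and a library total. That total, worked out by dividing count by FPKM and length, served as the library size. It differs from the summed listed counts and lies below them in vehicle 1 and 3. All 27615 listed genes had the coordinates of GENCODE release 29 (GRCh38).

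Lists that break off early were joined in 4 nested fits of 9, 8, 7 and 6 libraries, and each gene was read from the fit with the most libraries that list it. A gene listed for fewer than 2 libraries of any treatment was not fitted. Counts were fitted with edgeR 4.0.16 in R 4.3.3 (glmQLFit and glmQLFTest) after a filter of a mean of at least 1 FPKM, with Benjamini-Hochberg adjustment within each fit. Each standard error is the fold change over the root of its F statistic, an approximation. The 3 comparisons share groups. Genes named are the 10, list genes that were called, their family partners, and the 5 genes most and least like DKK1, of which 1 is not reported here, and others named were chosen after their values were seen. The members and lists were chosen with earlier results of these data known.

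No pair of replicates agreed within sampling noise (chi-square per degree of freedom 2.29 to 42.1). Alternatives were TMM, DESeq2 1.42.0, limma 3.58.1 with pseudocounts of 1 and 0.1, other filters, only the 2 groups compared, a gene-length offset, a replicate block, only genes listed for all 9 libraries and each library left out. Leaving out both libraries that stood apart was added after seeing the data. Python 3.11.15, pandas 2.3.3 and matplotlib 3.10.9 made tables and plots.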

Additional observations from a re-analysis of the deposited data

How the results depend on the processing

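The fold changes of DKK1 kept their direction under all 21 alternatives, from -3.09 to -2.84 for TXX-1-10, -1.37 to -1.27 for rimonabant and -1.77 to -1.53 between the compounds. The count of other Wnt genes called under TXX-1-10, 11 of 109, was 6 of 60 with only the genes listed for all 9 libraries. Of all 4236 genes then tested, 178 were called higher and 322 lower, beside 786 and 895 of 11688 in the main fit. Under rimonabant the count, 1 of 109, was 0 with limma on log2(FPKM + 1). Of all 11688 genes, limma called 46 higher and 62 lower, beside 145 and 127 in the main fit. The count was 0 of 72 with a mean FPKM of at least 5 (67 and 52 of all 7500 genes). With only the genes listed for all 9 libraries it was 0 of 60 (22 and 26 of 4236). With no filter on low values it was 3 of 119 (183 and 202 of 12902). Between the compounds the count, 7 of 109, was 3 with limma on log2(FPKM + 1). Limma then called 201 higher and 314 lower of all 11688 genes, beside 334 and 517 in the main fit. The count was 3 of 72 with a mean FPKM of at least 5 (165 and 323 of all 7500 genes). With only the genes listed for all 9 libraries it was 2 of 60 (67 and 184 of 4236). The limma setting tested all 109 list genes, and what moved these counts was not tested. Of the destruction-complex genes, 17 of 21 tested rose under TXX-1-10. With only the genes listed for all 9 libraries 10 of 13 rose, and with a mean FPKM of at least 5, 13 of 16 rose. The share of all genes that rose is not given for these settings. CCND1, PRKCA and RUVBL2 were not called with TMM or DESeq2 (-0.96, -0.98 and -0.93 with each). Where leaving out a library leaves 1 vehicle or rimonabant library for a gene, that library is assumed to vary like the others.

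Whether the replicate numbers pair the libraries could not be decided. Deviations from the group means correlated at -0.093 to 0.044 between same-numbered vehicle and treated libraries, and at -0.789, 0.8 and -0.59 between the compounds. Rimonabant replicate 1 and TXX-1-10 replicate 3 stood apart by gene length and bear on the deviations of their groups, so these correlations cannot show pairing or its absence. With the replicate number as a block the counts of genes called were 11, 1 and 7, the DKK1 values were -2.95, -1.32 and -1.62, and 17 destruction-complex genes rose. With the block and a gene-length offset they were 11, 1 and 7, with 18 of these genes. Depth limits the low genes, since AXIN2, TCF7, LGR5 and NKD1 had at most 146 reads in any library, and only FZD6, WNT5B and TCF7L2 values near 0 changed sign among the 10.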
